A study of Sus scrofa with 60 samples.

Results

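Ketohexokinase, the product of KHK, is followed here in the liver of pigs at 1 stage before birth and 3 after it. Of the 6765 genes that the probe annotation names by a single symbol, KHK was taken alone, with every probe set carrying that symbol, and this was 1 probe set. It was chosen by its measured levels at the 4 stages, since its rise after birth was already known from these arrays, so its own levels and differences are given as a description without a test. The 60 animals were German Landrace offspring of gilts that received the adequate protein (AP) diet in pregnancy, which holds for every group. They comprised 15 fetuses of 94 days post conceptionem (94 dpc) and 15 newborns, 14 weanlings and 16 adult pigs of 1, 28 and 188 days post natum (1, 28 and 188 dpn), each with its own Affymetrix array. The methods state that fetuses came by Caesarean section from an experiment of their own, that born sibs were spread over the later stages, and that weanlings and adult pigs were killed after a night without feed. Sib pairs were chosen at every stage, the light and the heavy sib of a litter among fetuses and newborns, so animals of a stage share litters. The labels state neither litter, weight nor sex, so every animal had to be treated as independent, and p-values may be too small for that reason.

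Ketohexokinase phosphorylates fructose at carbon 1 and thereby commits it to breakdown in the liver, where the product is split into dihydroxyacetone phosphate and glyceraldehyde. The step lies outside the control exerted on glycolysis by phosphofructokinase and uses ATP quickly, which links fructose to purine breakdown. Ungulate fetuses are known for high fructose in their blood, formed from glucose in the placenta by way of sorbitol, whereas sows' milk carries lactose, a sugar of glucose and galactose. In man and rodents the liver makes mostly the splice form KHK-C and many other tissues make KHK-A, and a single probe set does not tell these forms apart.

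KHK was near background in the fetus and the newborn and among the strongest signals of the arrays at 28 and 188 dpn. In linear intensity, the lowest, median and highest animals read 10.9, 80.7 and 209 at 94 dpc. At 1 dpn they read 32.9, 120 and 208. At 28 dpn they read 2276, 4683 and 5835. The fetal and newborn ranges overlapped, with 6 of 15 fetuses below the lowest newborn and no newborn above the highest fetus, whereas every weanling exceeded every newborn, and the lowest weanling read 10.9 times the highest newborn. At 188 dpn the lowest, median and highest animals read 6563, 7868 and 10141, so that every adult pig exceeded every weanling, although the lowest of the older animals was only 1.12 times the highest of the younger.

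Levels and differences from here on are log2(intensity + 16), unless stated otherwise. On this scale KHK averaged 6.16 ± 0.97 (SD, n = 15) in fetuses, 6.94 ± 0.68 (n = 15) in newborns, 12.14 ± 0.35 (n = 14) in weanlings and 12.97 ± 0.20 (n = 16) in adult pigs. The difference of 1 dpn minus 94 dpc (period I) was 0.79 ± 0.30 (SE), that of 28 dpn minus 1 dpn (period II) 5.20 ± 0.20 and that of 188 dpn minus 28 dpn (period III) 0.83 ± 0.11. By their means the order of the stages was therefore 94 dpc, 1 dpn, 28 dpn and 188 dpn. The animals of the first 2 stages overlapped, and whether these 2 stages differ was not tested. The period II difference corresponds to 36.7-fold on the scale with 16 added, and the ratio of the median intensities was 39.2. The period III difference corresponds to 1.78-fold.

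Background was read from 17 Tag control probe sets, which match no pig transcript. KHK lay above the highest of these on the same array in 6 of 15 fetuses, 11 of 15 newborns, 14 of 14 weanlings and 16 of 16 adult pigs. The differences of periods I and II thus rest partly on background, since background and the added 16 set part of the level in the first 2 stages. On the median array KHK ranked at percentile 34.2 of the probe sets in fetuses, 44.3 in newborns, 96.3 in weanlings and 97.5 in adult pigs. A filter that required a value above the array median in at least 50% of the animals of a stage kept KHK in periods II and III, but not in period I, where 1 fetus and 5 newborns met it.

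Compared with all other named genes, the period II difference of KHK was exceeded only by those of CYP3A29 (6.37) and CYP2A19 (5.88), which encode porcine cytochromes P450. KHK thus stood at rank 3 of 5335 genes and at rank 4 of 12976 probe sets, just ahead of CYP3A46 (5.04). In period III it stood at rank 244 of 12568 probe sets and at rank 103 of 5255 genes. These ranks describe the values that led to its choice.

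**Figure D1:**
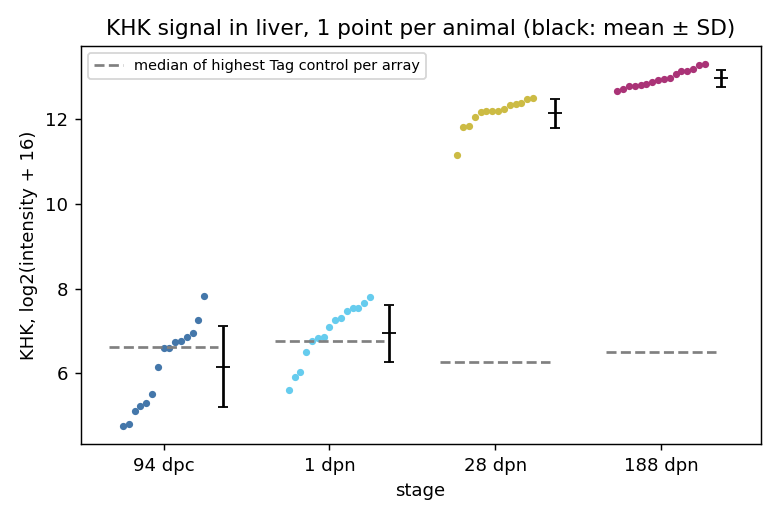
KHK signal, log2(intensity + 16), in each of the 60 animals by stage, with the mean ± SD in black and, as a dashed line, the median over arrays of the highest Tag control. Fetuses and newborns (means 6.16 and 6.94) scatter around the controls, while the weanlings (12.14) and adult pigs (12.97) lie far above them in separate bands.

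The spread between animals differed by stage. The coefficient of variation of the linear KHK intensity was 78.1% in fetuses, 45.9% in newborns, 20.3% in weanlings and 14.1% in adult pigs. The lowest fetuses and newborns read below the highest Tag control of their own array, so the spread of the first 2 stages includes that of the background. The highest animal read 2.56 times the lowest in weanlings and 1.55 times in adult pigs. Without a single weanling, animal 11, these 28 dpn values were 14.2% and 1.61 times, close to those of the adult pigs.

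Animal 11 thus accounted for much of the range at 28 dpn. Its KHK intensity was 2276, against 3620 to 5835 in the other 13 animals of the stage. It was also the lowest of the stage for TKFC, which acts downstream of KHK (8.76, others 9.29 to 10.27), and for MGST3, a microsomal glutathione transferase (13.34, others 13.70 to 14.52), as well as for HK1, GALT, PGM1 and VAMP8. Some genes of fetal or postnatal liver were read in it as well. Animal 11 was the highest for IGF2, the fetal growth factor (12.17, others 10.33 to 11.59), and for CYP3A29, which is high after 1 dpn (14.57, others 12.83 to 14.43). It was the lowest for the imprinted fetal gene PEG10 (6.97, others 7.23 to 10.27), and AFP lay inside the range (6.60, others 5.94 to 8.28). GLYCTK (11.28), SORD (14.90) and ALB (15.45) lay inside the range of the others. Its array correlated with the others of the stage at a mean r of 0.948, inside their range of 0.938 to 0.957, and had the lowest actin signal ratio (described next), 2.85 against 2.98 to 4.41. Without animal 11 the KHK difference was 5.27 in period II and 0.76 in period III. This animal and the genes named for it were singled out after its values were seen.

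RNA quality and cell composition moved with stage. The log2 signal ratio of the actin control probe set at the 3' end over that at the 5' end, which grows as RNA is shortened, averaged 2.29 ± 0.34 (SD) in fetuses, 1.76 ± 0.31 in newborns, 3.54 ± 0.46 in weanlings and 4.01 ± 0.45 in adult pigs. With this ratio as a covariate, added after the data were seen, the KHK difference was 4.48 ± 0.49 (SE) in period II. In period III it was 0.73 ± 0.11. The highest newborn ratio was 2.23 and the lowest weanling ratio 2.85, so the period II value is not a comparison at equal ratios. Over the 60 arrays KHK and the ratio had r of 0.88. The part of RNA quality in the KHK difference was not tested. All 13 measured hepatocyte markers of 15 listed were above the mean Tag background at every stage, which matches the labelled tissue. Their summed intensity had medians of 644328 in fetuses (range 524345 to 936351), 714314 in newborns (574894 to 878245), 482328 in weanlings (427528 to 634636) and 576789 in adult pigs (485391 to 784769). The median sum was lower at 28 dpn than at 1 dpn, with overlapping ranges. In period II, 12 of the 13 markers fell (limma, adjusted p below 0.05), where 39.0% of all tested probe sets fell. The falls of APOA1, APOA2, FGB and RBP4 passed under neither median centring nor quantile normalization. That of AMBP was lost under median centring (adjusted p = 0.43) and that of SERPINA1 under quantile normalization (adjusted p = 0.13). The lower marker level at 28 dpn thus depends partly on scaling. The 5 measured erythroid markers of 11, all above background at every stage, summed to a median of 25386 in fetuses (9763 to 44307), 2525 in newborns (1229 to 4965), 4437 in weanlings (1331 to 8031) and 3779 in adult pigs (2088 to 8540). The 5 measured macrophage markers of 8 summed to 12702 (10393 to 14892), 19896 (14341 to 24673), 38880 (28080 to 49238) and 29095 (20935 to 35089) in the same order. These sums weigh the strongest probe sets most, and the 5 did not move together. In period II, 2 rose, 1 fell and 2 did not pass the test, where 28.5% of all tested probe sets rose and 39.0% fell. C1QC, the strongest at 28 dpn (mean 14.53), rose by 1.60, whereas CD163 fell by 0.48. The part of cell composition in the KHK difference was not tested. In whole liver, fewer cells of a type and less RNA per cell cannot be told apart.

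The genes around KHK in fructose use were counted next, from a list of 11 of which 9 could be measured. The others were not analysed here. Without KHK, 5 of the 8 genes rose, 1 fell and 2 did not pass the test in period I, where 65.0% of the 12771 tested probe sets changed, 23.9% upwards and 41.1% downwards. In period II, 4 rose and 3 fell among the 7 that passed the filter, where 67.5% of 12976 probe sets changed, 28.5% upwards and 39.0% downwards. In period III, 2 rose and 2 fell of 7, where 39.6% of 12568 probe sets changed, 15.5% upwards and 24.1% downwards. The median difference of the 8 genes, filtered ones included, was 0.55 in period I, -0.13 in period II and 0.03 in period III, against -0.15, -0.10 and -0.04 over all tested probe sets. Whether these shares differ from those over all probe sets was not tested. In period II the list moved both ways, and its largest rise, 0.74 for TKFC, was far below the 5.20 of KHK.

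Among the transporters, SLC2A5, which encodes the fructose carrier GLUT5, was high in the fetus, where KHK was low. The lowest, median and highest levels were 6.88, 9.71 and 11.01 in fetuses, 4.40, 6.20 and 7.20 in newborns, 4.22, 5.45 and 6.64 in weanlings, and 4.18, 5.41 and 7.17 in adult pigs. Most fetuses stood well above all later animals, and only the lowest of them reached into the newborn range. SLC2A5 fell by 3.50 ± 0.32 (SE) in period I (limma, adjusted p = 3e-11). All 15 fetuses exceeded the highest Tag control, against 6 newborns, 1 weanling and 1 adult pig, so the level after birth rests partly on background, and the gene did not pass the filter afterwards. The stage with high SLC2A5 signal in liver and the stages with high KHK signal were therefore not the same.

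SLC2A2, the gene of GLUT2, the main hexose carrier of hepatocytes, was abundant throughout. Its lowest, median and highest levels were 10.29, 10.60 and 10.93 in fetuses, 10.78, 11.57 and 11.96 in newborns, 10.39, 10.61 and 10.98 in weanlings, and 9.39, 10.48 and 11.11 in adult pigs. The newborns stood highest and overlapped slightly with both neighbouring stages. SLC2A2 rose by 0.87 ± 0.11 in period I (limma, adjusted p = 3.8e-08) and fell by 0.82 ± 0.11 in period II (adjusted p = 1.8e-07, but -0.45 ± 0.29 and 0.26 with the actin ratio as a covariate). Its period III difference was -0.25 ± 0.13 (adjusted p = 0.13).

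SLC2A8, which encodes the intracellular carrier GLUT8, also peaked in the newborn. Its lowest, median and highest levels were 7.45, 8.44 and 8.90 in fetuses, 9.31, 10.01 and 10.28 in newborns, 8.12, 9.31 and 9.86 in weanlings, and 6.79, 8.47 and 8.91 in adult pigs. All newborns were above all fetuses. It rose by 1.67 ± 0.14 in period I (limma, adjusted p = 1.1e-11) and fell by 0.67 ± 0.14 in period II (adjusted p = 7.5e-05) and by 0.99 ± 0.19 in period III (adjusted p = 7e-05).

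Fructose can also be formed within the cell from sorbitol by sorbitol dehydrogenase, the product of SORD, the only measured gene of the polyol route (AKR1B1, for aldose reductase, was not named). SORD exceeded the highest Tag control in every animal, with lowest, median and highest levels of 13.84, 14.04 and 14.35 in fetuses, 14.38, 14.81 and 15.15 in newborns, 14.74, 14.86 and 15.20 in weanlings, and 14.88, 15.18 and 15.54 in adult pigs. Newborns lay wholly above fetuses, and the later stages overlapped with their neighbours. SORD rose by 0.76 ± 0.08 in period I (limma, adjusted p = 3.1e-10), and its period II difference was 0.09 ± 0.08 (adjusted p = 0.29). In period III it rose by 0.28 ± 0.07 (adjusted p = 0.0021), a direction that turned to -0.03 (adjusted p = 0.69) under quantile normalization. With the actin covariate the period III difference was 0.18 ± 0.07 (adjusted p = 0.055). The largest SORD difference thus lay in period I and that of KHK in period II.

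Downstream, glyceraldehyde is phosphorylated by triokinase, the product of TKFC, to join glycolysis. TKFC levels were 8.87, 9.19 and 9.43 (lowest, median, highest) in fetuses, 7.89, 9.15 and 10.25 in newborns, 8.76, 9.84 and 10.27 in weanlings, and 9.11, 9.90 and 10.02 in adult pigs. The newborns varied most and covered the ranges of the fetuses and of nearly all weanlings. TKFC rose by 0.74 ± 0.19 in period II (limma, adjusted p = 0.0013), a call lost with the actin ratio as a covariate (0.78 ± 0.51, adjusted p = 0.28), and differed by -0.11 ± 0.17 in period I (adjusted p = 0.58) and 0.03 ± 0.11 in period III (adjusted p = 0.88). A second, weak TKFC probe set averaged 5.27 in fetuses, 5.45 in newborns, 6.08 in weanlings and 6.94 in adult pigs, and with the mean of both the gene also rose in period III (0.44, adjusted p = 0.013).

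GLYCTK, GK, ALDH2 and ALDH1A1 stand for the side routes of glyceraldehyde by way of glycerate or glycerol. GLYCTK, which encodes glycerate kinase, had lowest, median and highest levels of 9.91, 10.12 and 10.65 in fetuses, 10.08, 10.89 and 11.47 in newborns, 10.85, 11.21 and 11.83 in weanlings, and 10.76, 11.43 and 11.79 in adult pigs. Each stage overlapped with its neighbours, but the median was higher at every later stage. GLYCTK rose by 0.68 ± 0.12 in period I (limma, adjusted p = 7.4e-06) and by 0.33 ± 0.12 in period II (adjusted p = 0.021). The period II call was lost when each stage's least correlated array was left out (0.29, adjusted p = 0.051), and the period III difference was 0.19 ± 0.09 (adjusted p = 0.11).

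GK, the glycerol kinase gene, changed earlier than KHK. Its lowest, median and highest levels were 6.78, 7.25 and 7.83 in fetuses, 10.72, 11.65 and 11.99 in newborns, 10.27, 10.96 and 11.60 in weanlings, and 9.08, 10.31 and 11.00 in adult pigs. No newborn overlapped with a fetus. GK rose by 4.21 ± 0.13 in period I (limma, adjusted p = 1.4e-22) and fell by 0.53 ± 0.15 in period II (adjusted p = 0.003) and by 0.70 ± 0.17 in period III (adjusted p = 0.0011), and the fall of period II was lost under median centring (-0.21, adjusted p = 0.24). A second, weaker GK probe set averaged 6.15 in fetuses, 9.86 in newborns, 7.53 in weanlings and 7.23 in adult pigs. On it the level thus fell much further after 1 dpn than on the strongest probe set.

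The aldehyde dehydrogenase genes were strong at all stages. ALDH2, the mitochondrial form, averaged 13.84 ± 0.15 (SD) in fetuses, 14.26 ± 0.21 in newborns, 14.82 ± 0.10 in weanlings and 15.04 ± 0.16 in adult pigs, and no weanling overlapped with a newborn. It rose by 0.42 ± 0.08 (SE) in period I (limma, adjusted p = 1.4e-05), by 0.56 ± 0.07 in period II (adjusted p = 8.5e-08, but 0.42 ± 0.19 and adjusted p = 0.10 with the actin covariate) and by 0.22 ± 0.06 in period III (adjusted p = 0.0042, but -0.09 and adjusted p = 0.19 under quantile normalization). ALDH1A1, a cytosolic form, rose by 0.26 ± 0.09 in period II (adjusted p = 0.011) and by 0.47 ± 0.07 in period III (adjusted p = 2.9e-06) on its strongest probe set, and differed by -0.12 ± 0.09 in period I (adjusted p = 0.26). Its probe sets disagreed in period II, where the second averaged 12.46 at 28 dpn, against 13.46 at 1 dpn, and the mean of both fell (-0.37, adjusted p = 0.0043). With the actin covariate the period II difference was 0.07 ± 0.23 (adjusted p = 0.86).

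**Figure D2:**
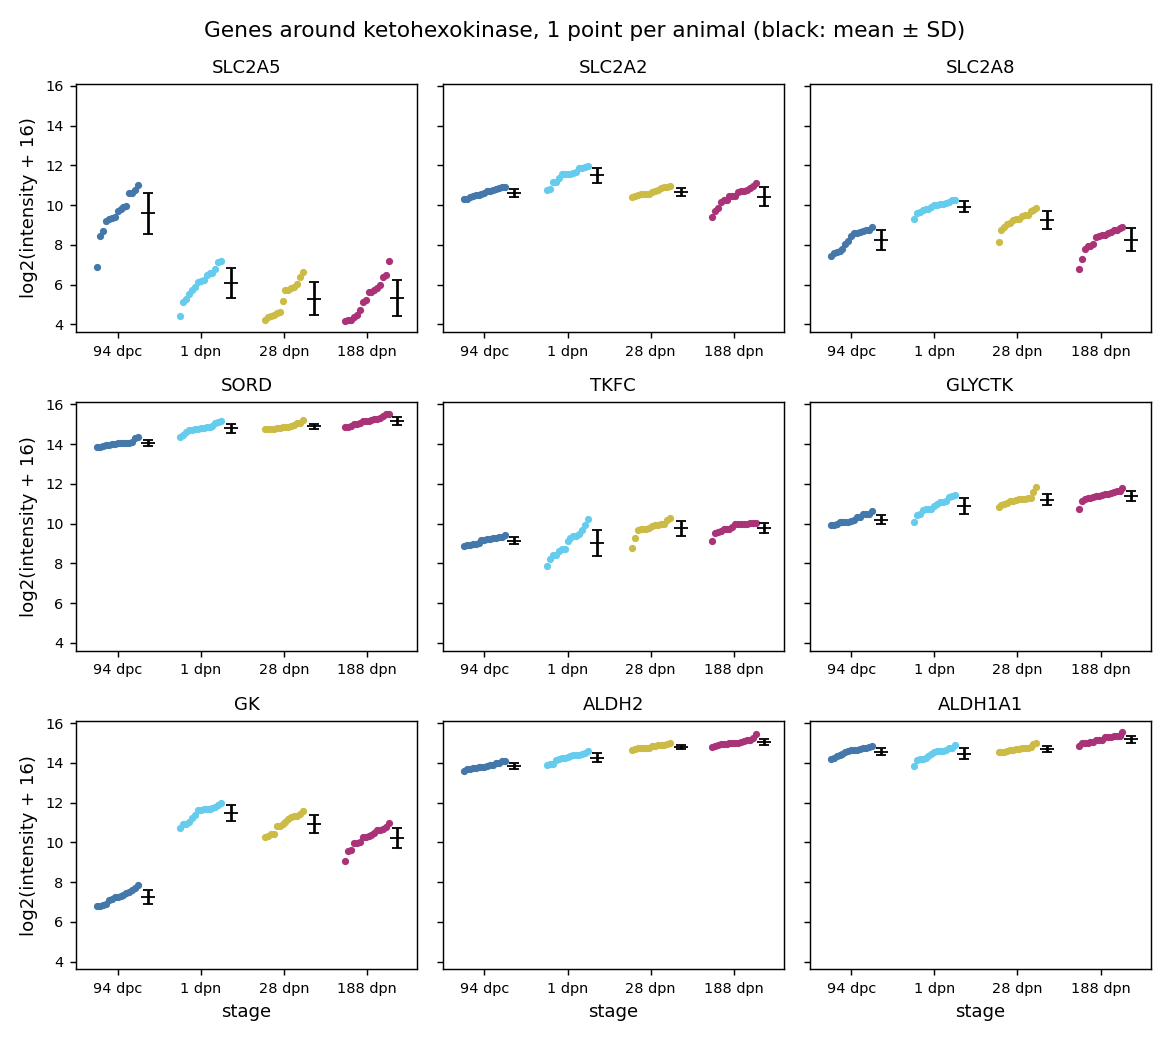
Levels, log2(intensity + 16), of 9 genes around ketohexokinase in each of the 60 animals by stage, with the mean ± SD in black on a common vertical axis. SLC2A5 is high at 94 dpc (mean 9.58), GK on its strongest probe set is high from 1 dpn (11.46) and SORD is above 13.8 in every animal.

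Of the hexokinases, which can phosphorylate fructose weakly at carbon 6, HK1 and HK3 were measured of 6 listed genes. HK1, the form of most tissues, averaged 9.60 ± 0.20 (SD) in fetuses, 9.45 ± 0.33 in newborns, 8.88 ± 0.35 in weanlings and 8.46 ± 0.26 in adult pigs. It fell by 0.56 ± 0.13 (SE) in period II (limma, adjusted p = 0.00025, but 0.092 with -0.25 under median centring and 0.15 with -0.66 ± 0.33 under the actin covariate) and by 0.43 ± 0.11 in period III (adjusted p = 0.0028), and differed by -0.15 ± 0.10 in period I (adjusted p = 0.18). HK3, known from blood cells, fell by 0.94 ± 0.19 in period I (adjusted p = 9.7e-05). In period II it rose by 0.62 ± 0.25 (adjusted p = 0.03, but 0.36 with 0.87 ± 0.66 under the actin covariate, and 0.092 with 0.47 when each stage's least correlated array was left out). Its period III difference was -0.26 ± 0.21 (adjusted p = 0.33), which became 0.58 (adjusted p = 0.00014) with the mean of its probe sets. HK1 therefore had its lowest levels where KHK had its highest.

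The galactose route, the other hexose pathway of milk sugar, served as a comparison, with 6 of 7 genes measured. In period I, 4 rose and none fell, in period II, 1 rose and 2 fell, and in period III, 2 rose and 3 fell. Over all tested probe sets 23.9% rose and 41.1% fell in period I, 28.5% and 39.0% in period II, and 15.5% and 24.1% in period III. The median difference of the 6 was 0.76 in period I, -0.19 in period II and -0.18 in period III. GALT, the uridylyltransferase, read 8.90, 9.41 and 9.68 (lowest, median, highest) in fetuses, 10.90, 11.49 and 11.81 in newborns, 9.93, 10.28 and 10.75 in weanlings, and 9.34, 9.88 and 10.43 in adult pigs. Newborns lay above all fetuses and all weanlings, and 2 further GALT probe sets also had their highest mean at 1 dpn (11.24 and 11.56).

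GALT rose by 2.10 ± 0.09 in period I (limma, adjusted p = 5.5e-19) and fell by 1.13 ± 0.10 in period II (adjusted p = 2.7e-11) and by 0.46 ± 0.10 in period III (adjusted p = 0.00054). GALK1, the galactokinase, had the same course, with a rise of 1.03 ± 0.09 (adjusted p = 1.3e-11) and falls of 1.30 ± 0.11 (adjusted p = 2.2e-11) and 0.71 ± 0.12 (adjusted p = 2.5e-05), and its newborns overlapped with neither neighbouring stage. In period II, GALK1 and GALT thus fell, whereas KHK was higher at 28 dpn than at 1 dpn.

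GALM, which encodes the mutarotase that makes the sugar's form used by galactokinase, rose in all 3 periods, by 1.00 ± 0.10 (adjusted p = 2.7e-10), 0.84 ± 0.11 (adjusted p = 3.6e-08) and 0.26 ± 0.08 (adjusted p = 0.012). PGM1, the phosphoglucomutase, rose by 0.51 ± 0.08 in period I (adjusted p = 2.8e-06) and by 0.47 ± 0.06 in period III (adjusted p = 3.3e-07), and its period II difference was -0.17 ± 0.08 (adjusted p = 0.071). GALK2, a kinase of N-acetylgalactosamine, fell by 0.43 ± 0.11 in period III (adjusted p = 0.0023) and differed by -0.06 and -0.17 before (adjusted p = 0.64 and 0.23). UGP2, which makes UDP-glucose, did not pass the test in any period (differences -0.08, -0.21 and 0.07, adjusted p = 0.54, 0.17 and 0.73).

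**Figure D3:**
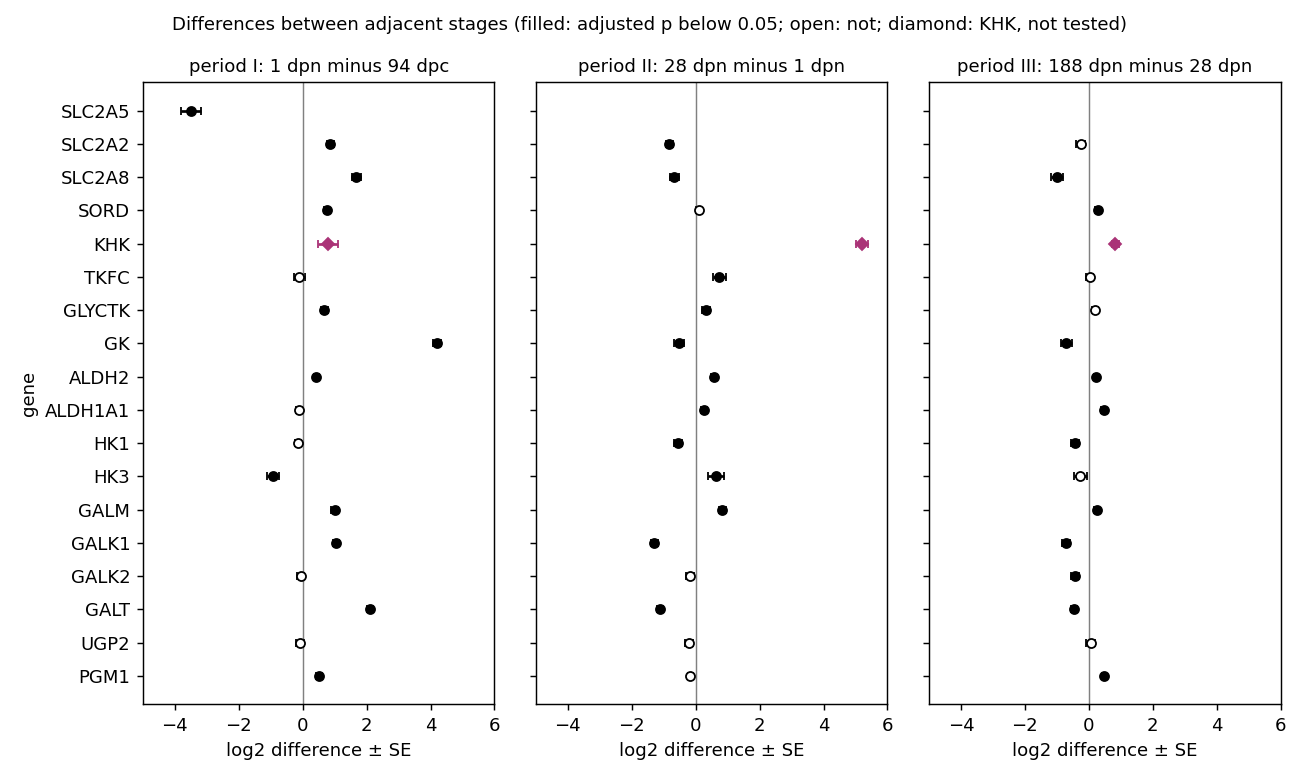
Differences between adjacent stages, log2 ± SE, in the 3 periods for KHK and the other measured genes of fructose, hexokinase and galactose steps. KHK (diamond, not tested) is drawn in every period, although it did not pass the filter in period I. Other genes are filled where the adjusted p was below 0.05, open where it was not and absent where they did not pass the filter. In period II KHK stands alone at 5.20 while all other genes lie between -1.30 and 0.84.

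Of a list of glycolysis genes, which includes steps that fructose bypasses, 13 of 16 were measured. Among them 9 rose and 1 fell in period I, and 3 rose and 4 fell in period II. In period III, 3 rose and 3 fell. Each time 12 genes of the list passed the filter. Those with the largest differences were PFKL, the liver phosphofructokinase that fructose bypasses (1.26 ± 0.11 in period I, limma, adjusted p = 3.7e-11), ALDOC, an aldolase (-1.10 ± 0.25 in period I, adjusted p = 0.0003), LDHB, a lactate dehydrogenase (0.99 ± 0.09 in period I, adjusted p = 9.4e-12), and ENO1, an enolase (-0.99 ± 0.10 in period II, adjusted p = 7.8e-10). ENO1 averaged 12.94 at 28 dpn, against 13.93 at 1 dpn, without overlap. Of 6 measured genes of glucose release, 5 rose and none fell in period I, 2 rose and 1 fell in period II, and 3 rose and 2 fell in period III. PC (1.77 ± 0.11, adjusted p = 3e-15), PCK1 (1.59 ± 0.32, adjusted p = 6.9e-05) and FBP1 (1.12 ± 0.11, adjusted p = 1.5e-10), which carry gluconeogenesis, rose in period I. SLC37A4, the glucose 6-phosphate carrier, rose most in period III (1.05 ± 0.10, adjusted p = 1.9e-09). More members of both lists rose in period I than in period II. The shares over all tested probe sets were 23.9% up and 41.1% down in period I, and 28.5% and 39.0% in period II. In period III they were 15.5% and 24.1%. Whether the lists differ from these shares was not tested.

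The carbohydrate response list held 5 measured genes of 9, since MLXIPL, for the carbohydrate response element binding protein, and 3 others were not named. In period I, where 41.1% of all tested probe sets fell, the 4 that passed the filter fell, namely KLF10 (-1.77 ± 0.14, limma, adjusted p = 1.7e-12), TXNIP (-1.17 ± 0.13, adjusted p = 2.5e-09), BHLHE40 (-1.15 ± 0.22, adjusted p = 3.4e-05) and ARRDC4 (-0.63 ± 0.26, adjusted p = 0.033, but 0.11 under median centring and 0.057 under quantile normalization). In period II, KLF10, a sugar-responsive repressor, rose by 0.57 ± 0.15 (adjusted p = 0.0017) and TXNIP, a glucose-induced inhibitor of thioredoxin, rose by 0.55 ± 0.13 (adjusted p = 0.0003), whereas ARRDC4 fell by 0.87 ± 0.28 (adjusted p = 0.0076, but 0.065 under median centring). In period III, ARRDC4 alone changed and fell by 0.82 ± 0.19 (adjusted p = 0.00099). With the actin ratio as a covariate these period II differences kept their direction at 0.99 ± 0.39 for KLF10, 0.58 ± 0.33 for TXNIP and -1.59 ± 0.73 for ARRDC4, but the wider errors left none past the threshold (adjusted p = 0.065, 0.21 and 0.11).

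In purine breakdown, which fructose phosphorylation is known to feed, UOX had the largest difference, and it lay in period II. UOX encodes urate oxidase, an enzyme that man has lost. Its lowest, median and highest levels were 4.32, 5.96 and 6.99 in fetuses, 5.11, 7.25 and 9.29 in newborns, 9.03, 9.93 and 10.62 in weanlings, and 8.90, 10.75 and 11.94 in adult pigs. The weanlings stood above nearly all newborns, with a small overlap, and the fetuses were near background, with 3 of 15 above the highest Tag control. UOX rose by 2.39 ± 0.28 in period II (limma, adjusted p = 1.2e-08, but 1.67 ± 0.73 and adjusted p = 0.096 with the actin covariate) and by 0.81 ± 0.21 in period III (adjusted p = 0.0024).

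Of the 5 measured purine genes, 3 passed the filter in period I, where 2 rose and 1 fell, and 4 in the later periods, where 2 rose and 2 fell in period II and 1 rose and 1 fell in period III. The shares over all tested probe sets were those given above for the galactose route. PNP, the purine nucleoside phosphorylase gene, fell by 1.01 ± 0.11 in period I (adjusted p = 3.2e-09) and rose by 0.50 ± 0.13 in period II (adjusted p = 0.0012, but 0.31 ± 0.34 and adjusted p = 0.55 with the actin covariate). ADK, for adenosine kinase, rose by 0.47 ± 0.09 in period I (adjusted p = 2.9e-05) and fell by 0.30 ± 0.10 in period II (adjusted p = 0.011), a direction that turned under median centring (0.02). NT5C2, a nucleotidase, rose by 0.45 ± 0.07 in period I (adjusted p = 1.1e-06) and fell by 0.65 ± 0.08 in period II (adjusted p = 1.4e-08) and 0.75 ± 0.09 in period III (adjusted p = 6.1e-08).

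The splicing regulators HNRNPH1, HNRNPH2 and SF3B1, tied to the choice between KHK forms in human liver tumours and mouse heart, all fell in periods I and II, where 41.1% and 39.0% of all tested probe sets fell, and none changed in period III. SF3B1 read 9.08, 9.94 and 10.65 (lowest, median, highest) at 28 dpn, against 10.39, 11.12 and 11.84 at 1 dpn, so that the stages overlapped, and it fell by 1.16 ± 0.17 in period II (limma, adjusted p = 3.5e-07). HNRNPH1 fell by 1.03 ± 0.15 (adjusted p = 5e-07) and HNRNPH2 by 0.61 ± 0.14 (adjusted p = 0.00028) in the same period. With the actin covariate the period II differences were -1.002 ± 0.43 for SF3B1, -0.93 ± 0.40 for HNRNPH1 and -0.85 ± 0.36 for HNRNPH2, and with these wider errors none passed (adjusted p = 0.091, 0.086 and 0.082). HNRNPH2 did not pass under median centring either (adjusted p = 0.064). In period I the calls of HNRNPH2 and SF3B1 were lost under median centring (0.13 and 0.19) and with the covariate (0.095 and 0.13). No probe set distinguished the KHK forms themselves.

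The stage profile of KHK was next compared with that of every other gene by Pearson's r over the 60 animals, as a description. The 60 points fall into 4 stages, and r here mostly reflects stage means. Of 6764 genes, 106 (1.57%) had r of at least 0.9 and 97 had r of -0.9 or below, with a median of -0.17. The 10 highest were FOLR2 (0.971), CYSTM1 (0.958), CYP3A29 (0.958), VAMP8 (0.957), CYP3A46 (0.952), IDS (0.952), CYP2A19 (0.951), SH3GLB2 (0.950), MGST3 (0.948) and HSD3B1 (0.947). Just outside them were ATP6V0E1 (0.947), ALAD (0.947) and PSAP (0.944). The 10 include a folate receptor of macrophages (FOLR2), P450 enzymes, a vesicle fusion protein (VAMP8), a lysosomal sulfatase (IDS) and a steroid dehydrogenase (HSD3B1), and none came from the fructose list.

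FOLR2, the nearest named gene, read 8.29, 8.76 and 9.37 (lowest, median, highest) in fetuses, 9.70, 10.11 and 11.04 in newborns, 13.57, 14.00 and 14.58 in weanlings, and 14.52, 14.86 and 15.24 in adult pigs. Unlike KHK, its fetuses and newborns did not overlap, whereas a small overlap joined 28 and 188 dpn. CYP3A29 averaged 5.11 ± 0.89 (SD) in fetuses, 7.46 ± 0.72 in newborns, 13.83 ± 0.53 in weanlings and 14.48 ± 0.24 in adult pigs. CYP2A19 averaged 6.91 ± 0.45, 6.99 ± 0.40, 12.86 ± 1.31 and 15.33 ± 0.21 at the same stages and so rose further after 28 dpn. MGST3 spanned only 12.41 to 14.27 in stage means, so a high r does not mean an equal size of difference. The highest r of any probe set was 0.973 and belonged to one that the annotation does not tie to a single symbol.

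The 5 lowest were AFP (-0.973), IGF2 (-0.972), ASNS (-0.968), RPL22L1 (-0.963) and PEG10 (-0.960). AFP, the fetal serum protein alpha-fetoprotein, averaged 15.84 ± 0.29 in fetuses, 15.59 ± 0.20 in newborns, 7.19 ± 0.81 in weanlings and 5.06 ± 0.46 in adult pigs. IGF2 averaged 15.30 ± 0.24, 14.69 ± 0.25, 11.03 ± 0.48 and 10.89 ± 0.17 at the same stages. Their low stages were thus the high stages of KHK, with the large step between 1 and 28 dpn in both.

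Within stages the likeness depended on the stage. When each animal's deviation from its stage mean was used, r with KHK was between -0.17 and 0.24 for the 10 genes, and none of the 10 was among the 10 highest by that measure. This pooled value includes fetuses and newborns, in which KHK was near background. At 28 and 188 dpn taken alone, r was 0.55 and 0.84 for CYSTM1 and 0.65 and 0.78 for VAMP8. It was 0.53 and 0.71 for MGST3 and 0.40 and 0.68 for FOLR2, but -0.21 and -0.16 for CYP3A29 and -0.14 and -0.23 for CYP3A46. At 28 dpn animal 11 was the lowest for KHK, VAMP8 and MGST3, and r without it was not computed. In the older stages r was thus above 0 for CYSTM1, VAMP8, MGST3 and FOLR2 and below 0 for the CYP3A genes. It was also above 0 at both stages for IDS (0.41 and 0.30), SH3GLB2 (0.52 and 0.51) and HSD3B1 (0.67 and 0.34). CYP2A19, also a P450 gene, had -0.15 at 28 dpn and 0.67 at 188 dpn. By Spearman's rho 2 of the 10 were shared, after quantile normalization 8 and after median centring 7. FOLR2 remained first under both scalings (0.969 and 0.975).

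**Figure D4:**
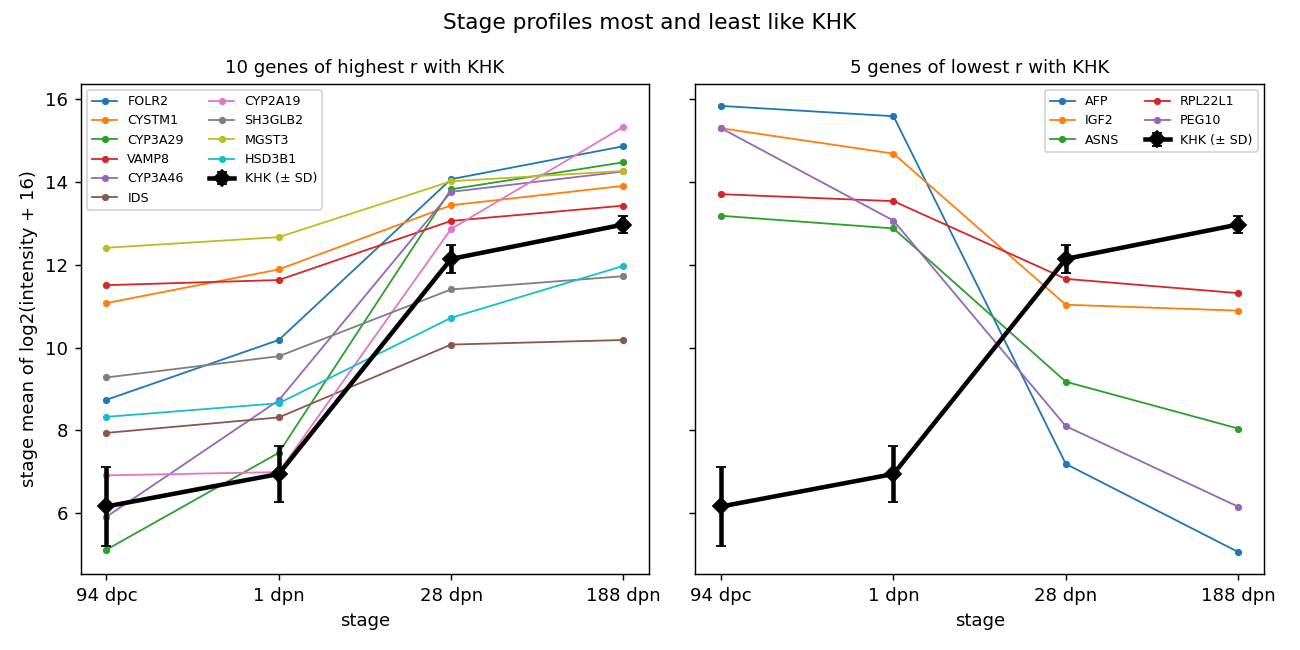
Stage means, log2(intensity + 16), of KHK (black, ± SD) with the 10 genes of highest r (left) and the 5 of lowest r (right) over 60 animals. All 10 share the step between 1 and 28 dpn with KHK but differ in size, with MGST3 between 12.41 and 14.27 and CYP3A29 between 5.11 and 14.48, and AFP runs the other way.

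Within a stage, the KHK level of an animal was compared with its level of each of 17 genes of the fructose, polyol, hexokinase and galactose lists, which gave 68 pairs of gene and stage. After Benjamini-Hochberg adjustment over the 68, none passed by Pearson's r or by Spearman's rho (permutation tests, two-sided), and 10 and 8 had an unadjusted p below 0.05. GALT came closest. At 28 dpn its r with KHK was 0.69 (permutation p = 0.0029, adjusted 0.098) and rho 0.59 (p = 0.030, adjusted 0.37), and r was 0.65 without the 2 animals farthest from the KHK median. At 1 dpn r was 0.72 (permutation p = 0.0025, adjusted 0.098) and rho 0.58 (p = 0.028, adjusted 0.37). Without the 2 animals farthest from the KHK median of that stage r was 0.41. KHK exceeded the highest Tag control in 11 of the 15 newborns, so part of its range at 1 dpn is background. At 188 dpn r was 0.43 (permutation p = 0.10, adjusted 0.36) and at 94 dpc -0.21 (permutation p = 0.45, adjusted 0.72).

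For TKFC at 28 dpn r was 0.65 (permutation p = 0.032, adjusted 0.24) but rho was 0.14 (p = 0.64, adjusted 0.85), and r was -0.55 without the 2 animals farthest from the KHK median, so the relation rested on those animals, of which animal 11 was the lowest for both genes. UGP2 at 28 dpn had r of -0.63 (permutation p = 0.019, adjusted 0.21) and rho of -0.78 (p = 0.0018, adjusted 0.12). Litter and weight, which the labels do not give, could not enter these comparisons.

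**Figure D5:**
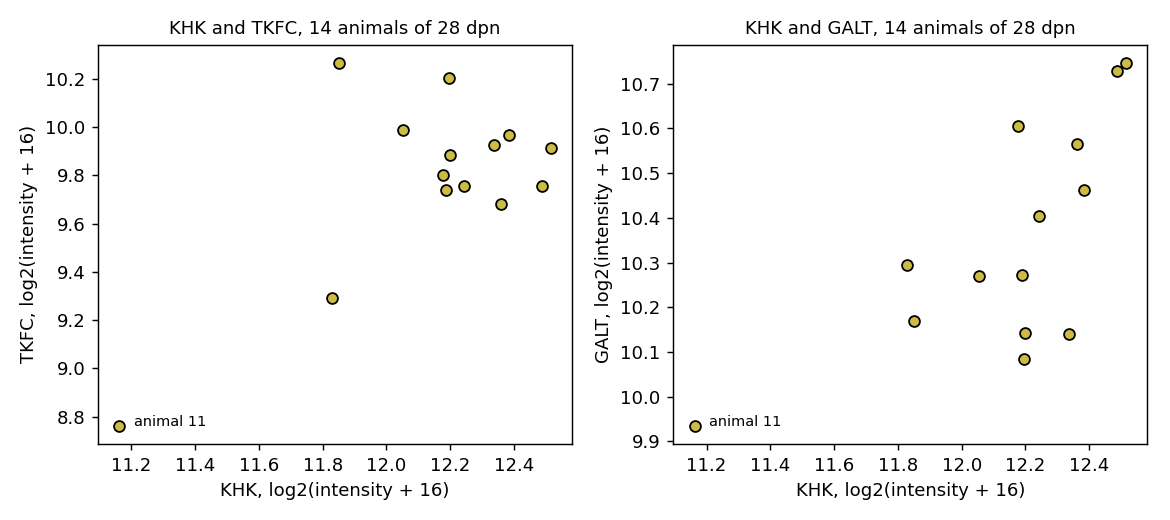
KHK on the horizontal and TKFC (left) or GALT (right) on the vertical axis, both log2(intensity + 16), in the 14 animals of 28 dpn. Animal 11 lies apart at 11.16 for KHK and 8.76 for TKFC, and r is 0.65 for TKFC and 0.69 for GALT over all 14 animals.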

How the data were processed

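Hepatic RNA of 60 AP offspring was hybridised to Affymetrix porcine arrays. The authors deposited 1 linear intensity per probe set and array, with GCOS 1.1.1 named in the submitters' notes on processing. Every array had a mean of 500.1 to 500.2 after trimming 2% at each end, so arrays had been scaled to a common target. These are not the GCRMA values of the study's own tests, which used a mixed model with terms not given in the labels. Of 24123 probe sets, 124 were controls. The annotation names 1 gene for 10069 of the others, and the strongest probe set stood for a gene. Of these 10069, 9961 were found in RefSeq (Sscrofa11.1), used for names only.

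Intensities were taken as log2(value + 16). Probe sets above the array median in at least 50% of the animals of a stage were compared between adjacent stages with limma 3.58.1 in R 4.3.3, on the 2 stages alone, and p-values were adjusted by Benjamini-Hochberg over all tested probe sets, with a threshold of 0.05. Changes are later minus earlier stage. Relations within stages used 100000 permutations (Python 3.11.15, numpy 2.4.6). The scripts were tested on simulated data. KHK, the gene lists, tests and alternatives were chosen with earlier results of these data known. Named genes were every measured member of the fructose, polyol, hexokinase and galactose lists, up to 4 of each other list with the largest change past the test, and the 10 most and 5 least like KHK with the 3 next. Where a gene outside this rule is named, it was chosen after its values were seen. No sequence is shown.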

Additional observations from a re-analysis of the deposited data

How the results depend on the processing

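Alternatives were other added constants (1 and 64), median centring, quantile normalization, no filter, the actin ratio as a covariate, removal of each stage's least correlated array, all 4 stages in 1 fit and the mean of a gene's probe sets. No paired analysis was possible because the labels carry no replicate numbers or litters.

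The KHK difference was 0.48 to 1.04 in period I, 4.48 to 5.51 in period II and 0.71 to 0.89 in period III, and 4.48 with the actin covariate was its largest move. Of the fructose genes, 3 in place of 7 changed in period II with that covariate, under which 3073 in place of 8762 probe sets were called, with wider standard errors, and the ratio itself moved with stage. Under median centring 1 pair passed within stages, KHK and GALT at 28 dpn (r = 0.76, adjusted p = 0.044), against none in the report. Of the 10 genes most like KHK, 2 were shared by Spearman's rho and 0 by deviations from stage means.

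There were 944 alternative values of 105 differences of named genes. Of these, 884 stayed on the same side of the threshold, 36 lost the call, 17 gained it and 7 turned direction. A turn was counted only where the reported or the alternative value passed the threshold. The 884 therefore include any turns of differences that passed in neither. The 7 counted turns included ADK (0.018 under median centring and 0.11 with the actin covariate) and PCK1 (-0.22 with that covariate) in period II. Under quantile normalization ALDH2 (-0.088) and SORD (-0.026) turned in period III. With the mean of probe sets ALDH1A1 turned in period II (-0.37) and HK3 in period III (0.58). Why these turned was not tested. Median centring moved the median difference of all probe sets by 0.17 in period I and 0.31 in period II, and the share of calls that were rises in period II was 65.9% under it, 52.5% after quantile normalization and 42.2% as reported. In period I these shares were 52.7%, 46.9% and 36.8%, and in period III 51.1%, 48.1% and 39.2%. Signal near background limits KHK at 94 dpc and 1 dpn and SLC2A5 after birth.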
